A study of Mus musculus with 6 samples.

Results

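The collagen genes are the members of the deposited count table whose gene ID maps to a symbol made of Col, a number, a and a number, such as Col1a1. The rule found 44 of the 51911 genes of the table, and each was placed in a class of collagen by its known assembly. The table came from bulk RNA sequencing of frozen gastrocnemius, a calf muscle, of male mice, with 3 libraries of HSA-PGC-1a3 transgenic mice and 3 of wild-type mice. In the transgenic mice a human skeletal actin (HSA) promoter, a promoter of muscle fibres, drives PGC-1alpha3, a form of the coactivator PGC-1alpha. Much of the collagen in muscle is known to be made by fibroblasts rather than by the fibre. The labels state neither age nor strain, nor how many animals stand behind a library, so the p-values measure the spread between these libraries.

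Collagens are proteins of 3 chains wound into a triple helix. Fibrillar chains form the strong fibres of the layers around muscle, fascicles and fibres. Basement membrane chains form a sheet around each muscle fibre and blood vessel. FACIT chains (fibril-associated collagens with interrupted triple helices) sit on the surface of fibrils, and transmembrane collagens are anchored in a cell's membrane. Beaded-filament, network, multiplexin and anchoring-fibril collagens link these structures to each other and to cells. In muscle these genes are known from fibrosis, in which fibrillar collagen accumulates, and from inherited muscle disease caused by type VI collagen variants.

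Total counts ranged from 25532146 to 40846872 per library. Ppargc1a, from which the transgene derives, had at least 73513 counts in every transgenic library and at most 1809 in every wild-type library, so each label matched its library. Collagen genes held 62271, 55392 and 68005 counts with the transgene and 54954, 73161 and 47810 without it. Of the 44 members, 38 passed the filter on low counts and were tested together with all other genes, 16593 in total (edgeR's quasi-likelihood test with Benjamini-Hochberg adjustment, called at an adjusted p under 0.05). The other 6, Col9a2, Col9a3, Col25a1, Col6a4, Col6a5 and Col10a1, are given by their counts. A level below is in CPM, counts relative to library size after TMM scaling, and a count of 3 equals 0.0804 to 0.134 CPM.

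The transgenic muscle held almost no Col9a1 transcript, more Col19a1, Col11a2, Col24a1 and Col8a1, and less Col7a1, while the abundant collagens of types I, IV, VI and XV were slightly lower in CPM. Of the 38 tested collagens, 4 rose and 11 fell, and 23 did not pass. That is 39.5% called, below the 50.7% of all tested genes. By direction, 25.5% of all tested genes rose and 25.2% fell. The median log2 fold change (transgenic over wild type) was -0.19 for the tested collagens and -0.016 for all tested genes. At least 2-fold changes were called for 3 collagens, Col9a1, Col19a1 and Col11a2, or 7.9%, against 10.7% of all tested genes. CPM ranges of the genotypes were apart for 15 tested collagens (39.5%), with 4 higher and 11 lower in transgenic libraries, against 59.6% of all tested genes (30.1% higher and 29.5% lower).

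The direction of the small changes depended on the scaling between libraries. With library totals alone, the median log2 value moved to 0.38 for all tested genes and to 0.20 for the collagens. Then 15 collagens were called higher and 2 lower, against 52.3% and 8.73% of all genes (61.0% in either direction). Under that scaling 29 of the 38 lay below the median gene, and with TMM scaling 29 of the 38 lay below 0. Only 6 of the 15 calls kept their direction and passed under library totals as well: Col9a1 and Col7a1 as lower, and Col11a2, Col24a1, Col8a1 and Col19a1 as higher. The summed collagen level was 2048, 1845 and 1822 CPM in the transgenic and 2381, 2107 and 2130 CPM in the wild-type libraries, without overlap. As an unscaled share of all counts, collagens held 0.234%, 0.211% and 0.209% with the transgene and 0.211%, 0.179% and 0.187% without it, so that the genotypes overlapped and transgenic replicate 1 was highest. In these bulk samples fewer cells of a type and less RNA per cell cannot be told apart.

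**Figure D1:**
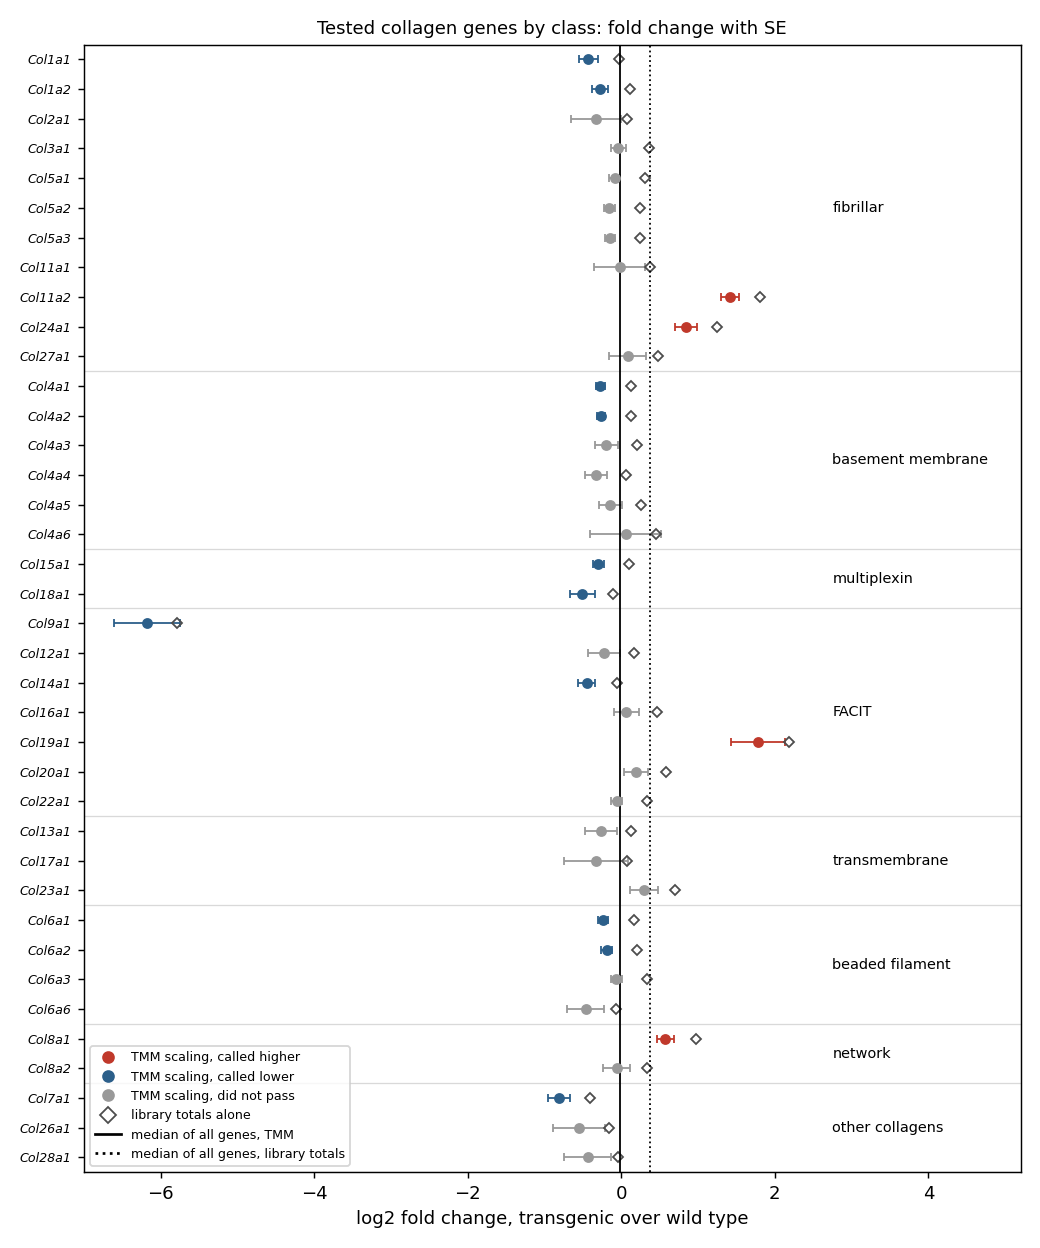
Log2 fold change, transgenic over wild type, of the 38 tested collagen genes by class. Filled points with SE bars use TMM scaling and are coloured by call, open diamonds use library totals alone, and the lines mark the median of all tested genes at -0.016 and 0.38. Col9a1 lies at -6.18, far from all other members, and most other members lie near the median gene under either scaling.

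A few chains held most of the collagen counts, and the 5 genes with the most counts were the same in every library. Per kilobase of exon in wild-type muscle, Col1a1 had the highest level at 50.5 CPM, followed by Col4a1 at 35.9, Col1a2 at 32.2, Col4a2 at 31.2 and Col3a1 at 29.9. These 5 genes held 65.4% to 66.5% of collagen counts with the transgene and 67.0% to 69.1% without it. Fibrillar chains held 54.9% to 56.3% of collagen counts with the transgene and 53.5% to 56.2% without it, and type IV chains 20.7% to 21.7% and 21.4% to 22.7%. The ranges of the genotypes overlapped for both classes.

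Col9a1 (ENSMUSG00000026147, chromosome 1, 24177610 to 24252684, plus strand, GRCm38) encodes a chain of type IX collagen, a FACIT best known from cartilage, where it joins the Col9a2 and Col9a3 chains. It had 1, 2 and 4 counts with the transgene and 88, 266 and 107 without it. Every wild-type library was far above every transgenic one. From summed counts the level was 80.2-fold higher in wild type, with an exact 95% counting interval of 38.6 to 200.6 that covers counting error only. The fitted log2 fold change was -6.18 (SE 0.42, adjusted p = 1.66e-06) and ranged from -6.65 to -5.83 when each library was left out in turn. The authors' deposited table gives -4.47 for this gene. A DESeq2 Wald test of the deposited counts gave a log2 fold change of Col9a1 of -6.25, and whether the authors' values were shrunken towards 0 is not given in the sources used here.

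Its partner chains were scarcely read in either genotype. Col9a2 had 10, 3 and 5 counts against 8, 18 and 6 in wild type, a transgenic over wild-type ratio of 0.462 (counting interval 0.244 to 0.848). Col9a3 had 7, 5 and 11 against 2, 10 and 3, a ratio of 1.26 (0.629 to 2.59), and it shares 234 exonic bases with Tcfl5. The counts of either gene overlapped between genotypes. Of 7 other cartilage markers, 5 were below the filter, among them Matn1 with no count in any library, and Sox9 and Col2a1 were tested. Acan had 0, 1 and 1 counts with the transgene against 3, 7 and 1, and Cnmd 1, 0 and 0 against 2, 3 and 3. Hapln1 had 8, 1 and 5 against 2, 2 and 1, and Matn3 17, 10 and 9 against 7, 10 and 5. The summed level of that list was 2.38 to 4.14 CPM in transgenic and 3.74 to 5.07 CPM in wild-type libraries. Within it Sox9, a cartilage transcription factor that other cells also express, was called lower (-0.78, SE 0.21, adjusted p = 0.00882), but not with library totals alone (adjusted p = 0.138).

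Col19a1 (ENSMUSG00000026141, chromosome 1, 24261890 to 24587472, minus strand), a FACIT found near basement membranes and known in the mouse from muscle of the oesophagus, is the neighbour of Col9a1 on the chromosome. Their 3 prime ends face each other across 9205 bases with no annotated gene between. Col19a1 was at 3.12, 3.80 and 7.45 CPM in the transgenic and 1.21, 1.64 and 1.29 CPM in the wild-type libraries. All transgenic values lay above all wild-type values, with transgenic replicate 3 highest. The level was 3.44-fold higher (log2 1.78, SE 0.36, adjusted p = 0.00371), and the log2 value was 1.32 without transgenic replicate 3. The neighbours thus moved in opposite directions: the ratio of Col9a1 to Col19a1 per exonic kilobase was 5.21 ± 1.05 in wild-type and 0.0192 ± 0.00478 in transgenic libraries (SD, n = 3 each). Fam135a, the nearest tested gene on the other side of Col9a1, rose by 0.31 on the log2 scale (SE 0.06, adjusted p = 0.00205).

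The sequences just before the start sites of these genes are shown for Col9a1, its neighbour, and the called genes that hold the core motif of the ERR receptors, well-known partners of PGC-1alpha. RefSeq (GRCm38.p6) gives Col9a1 a start at each of 2 places, and gene-level counts do not separate the transcripts. Each line holds the 250 bases upstream of a start, 5′ to 3′ on the gene's strand, and capitals mark AAGGTCA on either strand.
Col9a1, upstream start, chr1:24177360-24177609, plus strand: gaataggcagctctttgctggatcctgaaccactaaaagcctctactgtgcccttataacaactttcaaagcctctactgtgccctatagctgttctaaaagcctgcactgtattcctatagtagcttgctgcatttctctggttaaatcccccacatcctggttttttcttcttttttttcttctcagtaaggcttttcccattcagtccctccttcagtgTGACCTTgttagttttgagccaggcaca
Col9a1, downstream start, chr1:24194953-24195202, plus strand: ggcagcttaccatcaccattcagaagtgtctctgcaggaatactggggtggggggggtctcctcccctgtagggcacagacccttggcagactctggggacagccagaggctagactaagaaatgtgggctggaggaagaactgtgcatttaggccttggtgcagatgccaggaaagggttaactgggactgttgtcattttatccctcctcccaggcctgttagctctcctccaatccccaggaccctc
Col19a1, chr1:24587438-24587687, minus strand: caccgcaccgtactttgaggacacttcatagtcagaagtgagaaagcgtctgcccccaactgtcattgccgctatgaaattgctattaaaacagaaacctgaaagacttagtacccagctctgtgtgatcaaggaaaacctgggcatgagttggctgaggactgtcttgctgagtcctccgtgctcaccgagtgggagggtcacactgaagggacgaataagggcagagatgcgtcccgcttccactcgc
Col24a1, chr3:145292222-145292471, plus strand: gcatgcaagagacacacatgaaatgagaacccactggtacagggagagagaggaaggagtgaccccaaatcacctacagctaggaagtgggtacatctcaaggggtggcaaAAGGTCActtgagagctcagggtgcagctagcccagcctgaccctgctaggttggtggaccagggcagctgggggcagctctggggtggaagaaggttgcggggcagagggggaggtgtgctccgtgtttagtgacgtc
Col7a1, chr9:108953336-108953585, plus strand: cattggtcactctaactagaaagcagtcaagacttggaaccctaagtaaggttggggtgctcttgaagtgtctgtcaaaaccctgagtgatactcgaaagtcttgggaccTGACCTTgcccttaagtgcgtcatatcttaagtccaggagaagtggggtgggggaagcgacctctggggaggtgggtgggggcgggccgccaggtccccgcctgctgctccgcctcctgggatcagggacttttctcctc
The motif begins 28 bases before the upstream start of Col9a1, 139 bases before that of Col24a1 and 140 bases before that of Col7a1. It was found in 5 of the 38 windows available for 35 collagen genes (13.2%), against 4.08% of all 32851 windows of the same length. The other 2 collagen windows with it belonged to Col11a1 and Col23a1, which did not pass the test. Of the 3 called genes with a match, Col24a1 rose and Col9a1 and Col7a1 fell. The E-box letters CANNTG, searched on both strands, were in 19 of the 38 collagen windows and 66.2% of all windows, and GGGCGG, a GC box, in 57.9% and 32.7%. These matches describe letters in a window and do not show binding.

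Among the fibrillar collagens, which carry the bulk of collagen RNA, 2 of 11 rose and 2 fell (36.4% called, against 50.7% of all tested genes), with a median log2 fold change of -0.089. With library totals alone 6 rose and 0 fell (median 0.31), against 52.3% and 8.73% of all tested genes. Col3a1, Col5a1, Col5a2 and Col5a3 were then also called higher. Col11a2 (ENSMUSG00000024330, chromosome 17, 34039437 to 34066685), a chain of type XI collagen that sets fibril diameter in cartilage and also occurs with type V chains, was at 36.0, 34.9 and 31.6 CPM in transgenic and 12.6, 15.1 and 10.6 CPM in wild-type libraries. The groups were well apart. The level was 2.66-fold higher (log2 1.41, SE 0.12, adjusted p = 6.41e-06). Its relative Col11a1 was at 7.07, 7.46 and 3.0 CPM against 6.28, 5.53 and 5.88 CPM, and transgenic replicate 3 was the lowest of the 6. The ratio of Col11a2 to Col11a1 per exonic kilobase was 9.44, 8.67 and 19.5 with the transgene and 3.71, 5.06 and 3.33 without it. This ratio does not depend on the scaling between libraries, and the genotypes did not overlap.

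Col24a1 (ENSMUSG00000028197, chromosome 3, 145292472 to 145552011), a minor fibrillar chain known from bone, was at 11.3, 12.5 and 11.3 CPM in transgenic and 5.2, 8.09 and 6.01 CPM in wild-type libraries, a 1.80-fold higher level (log2 0.85, SE 0.15, adjusted p = 6.73e-04). Wild-type replicate 2 was closest to the transgenic libraries but still below them. Col27a1, another minor fibrillar gene, had a log2 fold change of 0.083 (SE 0.24), and Col2a1, the main fibrillar chain of cartilage, was at 0.670 to 1.18 CPM against 0.757 to 1.38 CPM.

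The chains of type I collagen, the main fibre of muscle connective tissue, were lower in CPM under TMM scaling. Col1a1 was at 291.5, 236.0 and 210.7 CPM in transgenic and 366.9, 324.7 and 302.6 CPM in wild-type libraries. Its groups did not overlap, and its log2 fold change was -0.43 (SE 0.12, adjusted p = 0.0215), but -0.035 with library totals alone. Its call ended without transgenic replicate 2 (adjusted p = 0.0901) and without either of wild-type replicates 1 (0.0764) and 2 (0.0647). Col1a2 was at 367.2, 333.7 and 286.1 against 450.1, 387.7 and 363.2 CPM, overlapping, with a log2 value of -0.28 (SE 0.10, adjusted p = 0.0482) that was 0.11 with library totals alone and lost its call without transgenic replicate 2 or 3 or wild-type replicate 1 or 2.

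The gene of type III collagen, which forms fine fibres with type I, was not called. Col3a1 was at 290.0, 257.7 and 309.7 CPM in transgenic and 333.3, 257.2 and 289.9 CPM in wild-type libraries, overlapping in full, with a log2 value of -0.038 (SE 0.10, adjusted p = 0.780). Within a library, the ratio of Col3a1 to Col1a1 per exonic kilobase was 0.665, 0.730 and 0.983 with the transgene and 0.607, 0.530 and 0.641 without it. The ratio of Col1a1 to Col1a2 was 1.5, 1.34 and 1.39 against 1.54, 1.59 and 1.58. Neither ratio overlapped between genotypes, though transgenic replicate 1 lay close to the wild-type range in each. The ratio of Col3a1 to Col1a2 was not computed. The type V chains, which start fibril assembly, were not called, with log2 fold changes of -0.089 for Col5a1, -0.16 for Col5a2 and -0.15 for Col5a3 (SE 0.07 each).

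**Figure D2:**
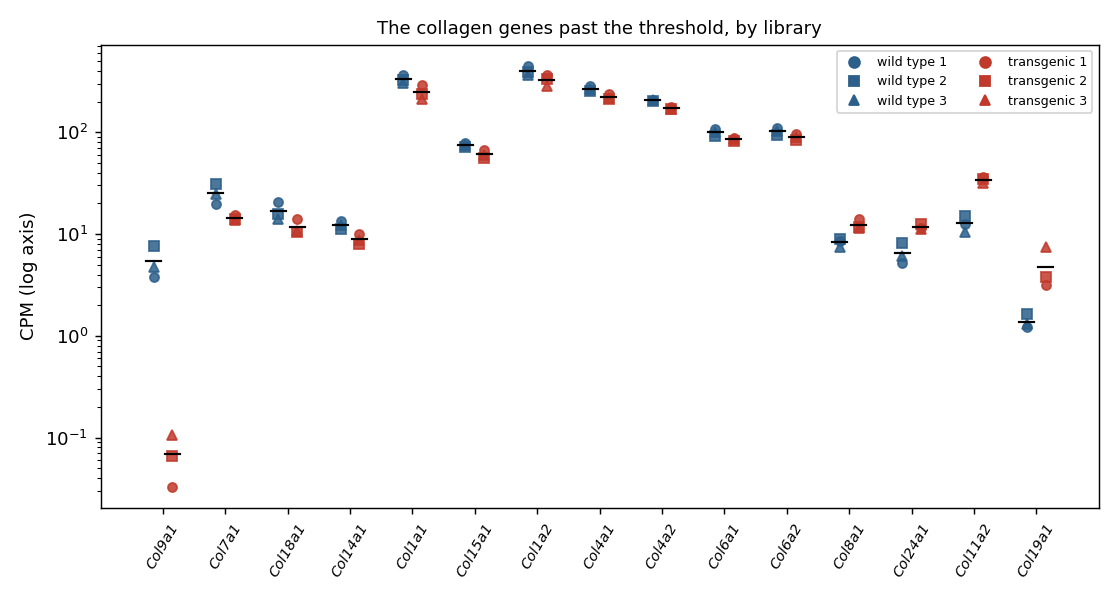
CPM by library, on a log axis, of the 15 collagen genes past the threshold, ordered by log2 fold change. Each point is a library, with shape giving the replicate and colour the genotype, and the bar is the mean of the 3. Col9a1 stands at 0.0689 CPM in transgenic against 5.41 CPM in wild-type libraries on average, and Col11a2 and Col19a1 are the genes with the widest gap upward.

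The basement membrane collagens were led by Col4a1 and Col4a2, the chains of the type IV network found around fibres and vessels. Col4a1 was at 235.8, 213.7 and 216.7 CPM in transgenic and 284.8, 256.2 and 263.4 CPM in wild-type libraries (log2 fold change -0.27, SE 0.06, adjusted p = 0.00365). Col4a2 was at 178.3, 169.7 and 167.5 against 209.0, 202.6 and 207.7 CPM (-0.26, SE 0.05, adjusted p = 0.00122). In either gene all transgenic libraries lay below all wild-type libraries in CPM. With library totals alone the sign turned, to 0.12 (adjusted p = 0.128) for Col4a1 and 0.13 (adjusted p = 0.0456) for Col4a2, each still below the median gene at 0.38. These genes start head to head on chromosome 8 and share 22 exonic bases. Their ratio per exonic kilobase was 1.15 ± 0.0281 in transgenic and 1.15 ± 0.0491 in wild-type libraries (SD, n = 3 each).

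The rarer type IV chains did not pass. Col4a3 and Col4a4, also a head-to-head pair with 71 bases between them, had log2 fold changes of -0.20 (SE 0.15) and -0.33 (SE 0.14, adjusted p = 0.0702), without overlap of the groups in CPM. Col4a5 was at -0.14 (SE 0.15), and Col4a6, its neighbour on chromosome X, at 0.057 (SE 0.46) with 11 to 24 counts per library. In all, 2 of 6 type IV genes fell and 0 rose (33.3% called, against 50.7% of all tested genes). With library totals alone 0 fell and 1 rose, where 52.3% of all tested genes rose.

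The multiplexins Col15a1 and Col18a1 sit at the outer face of basement membranes, and their ends can be cut into antiangiogenic fragments. Both fell under TMM scaling, where 25.2% of all tested genes fell. Col15a1 was at 66.8, 56.0 and 59.6 CPM in transgenic and 78.3, 71.0 and 75.5 CPM in wild-type libraries (-0.30, SE 0.07, adjusted p = 0.00494), without overlap, and at 0.095 with library totals alone. Col18a1 was at 14.2, 10.4 and 10.8 against 20.4, 15.8 and 14.2 CPM, with transgenic replicate 1 reaching the wild-type range (-0.51, SE 0.16, adjusted p = 0.0297). The Col18a1 call ended without transgenic replicate 2 or 3 or wild-type replicate 1 or 2. It also ended with library totals alone, at -0.11 (adjusted p = 0.588).

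Among the other FACIT genes, Col14a1, which binds fibrils through decorin, fell, from 13.3, 11.1 and 12.2 CPM in wild-type to 10.1, 7.96 and 8.79 CPM in transgenic libraries (-0.45, SE 0.11, adjusted p = 0.00596, and -0.054 with library totals alone). Col22a1, a chain placed at the junction of muscle and tendon, was at 30.2, 30.0 and 26.9 CPM against 29.9, 29.8 and 31.1 CPM (-0.061, SE 0.07). Col12a1, a chain of tendon and muscle sheaths, was at 15.2, 14.1 and 8.41 against 15.4, 14.3 and 14.3 CPM, so that transgenic replicate 3 alone was low (-0.23, SE 0.21, and 0.0096 without it). Col16a1 and Col20a1 were at 0.067 (SE 0.17) and 0.19 (SE 0.16) and did not pass. In all, 1 of 7 tested FACIT genes rose and 2 fell (42.9% called, against 50.7% of all tested genes), with a median of -0.061. Scaled by library totals alone, 4 rose and 1 fell, with a median of 0.33, against 52.3% and 8.73% of all tested genes. Col16a1, Col20a1 and Col22a1 were then called higher.

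Of the 3 tested transmembrane collagens 0 passed, against 50.7% of all tested genes. Col13a1, which is needed for maturation of the neuromuscular junction, was at 2.56, 2.17 and 1.58 CPM in transgenic and 2.69, 2.33 and 2.54 CPM in wild-type libraries, a log2 value of -0.26 (SE 0.21, adjusted p = 0.311). Its groups overlapped. Col25a1, known in the mouse for the innervation of muscle by motor neurons, was below the filter with 12, 13 and 9 counts against 8, 13 and 4, a transgenic over wild-type ratio of 1.12 (counting interval 0.647 to 1.95). Col23a1 was at 5.92, 4.13 and 3.88 against 4.16, 3.86 and 3.25 CPM (0.30, SE 0.18, adjusted p = 0.194), and it was called with library totals alone (0.70, adjusted p = 0.00674). Col17a1, a skin hemidesmosome chain, had 7 to 20 counts per library and a log2 fold change of -0.33 (SE 0.42).

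Type VI collagen is the beaded filament that ties the basement membrane of the muscle fibre to the matrix around it. Of its 4 tested genes, 2 fell and 0 rose (50% called, near the 50.7% of all tested genes). With library totals alone 2 rose and 0 fell, where 52.3% of all tested genes rose. Col6a1 was at 88.6, 81.3 and 85.9 CPM in transgenic and 107.7, 92.6 and 100.8 CPM in wild-type libraries (-0.23, SE 0.07, adjusted p = 0.0120), and Col6a2 at 95.4, 84.0 and 89.0 against 110.0, 93.9 and 103.0 CPM (-0.19, SE 0.07, adjusted p = 0.0426). Both values turned above 0 with library totals alone, at 0.16 (adjusted p = 0.0753) for Col6a1 and 0.20 (adjusted p = 0.0420) for Col6a2, so that the Col6a2 call reversed. Leaving out transgenic replicate 2 ended the call of either gene, and the Col6a2 call also ended without transgenic replicate 3 and without either of wild-type replicates 1 and 3. Col6a3 was at -0.064 (SE 0.08), and Col6a6, an alternative to that chain, at 4.31, 8.33 and 7.74 against 10.3, 7.86 and 10.2 CPM (-0.46, SE 0.24, adjusted p = 0.152). Col6a4 and Col6a5 had 0 to 36 counts per library, and the highest of these was Col6a5 in transgenic replicate 1.

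**Figure D3:**
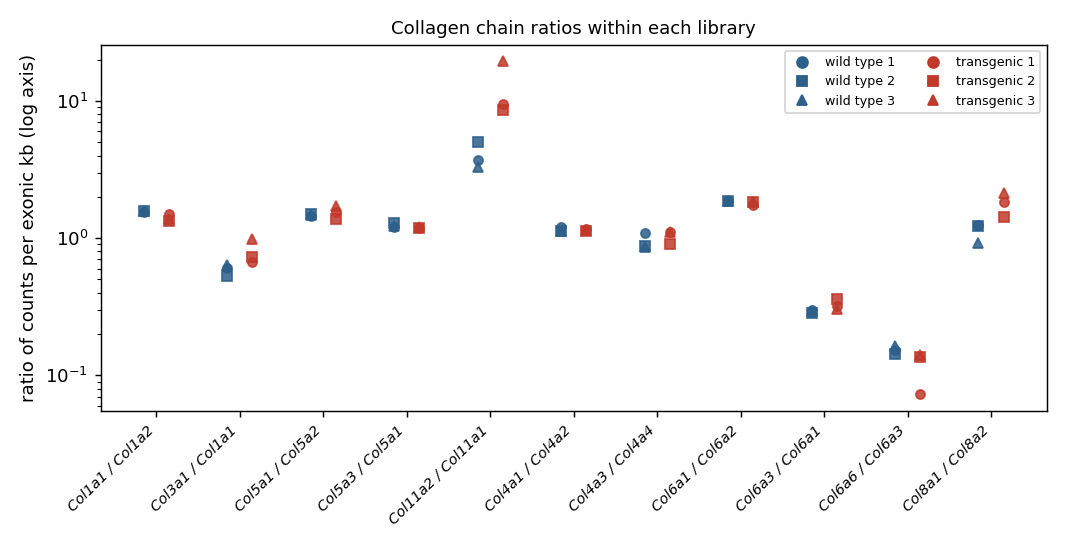
Ratio of the counts per exonic kilobase of pairs of collagen chains within each library, on a log axis. Each point is a library, and no scaling between libraries enters. Col4a1 to Col4a2 stayed at 1.12 to 1.21 in all 6 libraries, while Col11a2 to Col11a1 and Col8a1 to Col8a2 were higher in every transgenic than in every wild-type library.

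Of the remaining collagens, Col8a1 rose and Col7a1 fell. Col8a1 (ENSMUSG00000068196, chromosome 16, 57624258 to 57754737), a short-chain network collagen known from vessel walls and the cornea, was at 14.0, 11.6 and 11.5 CPM in transgenic and 8.45, 8.93 and 7.44 CPM in wild-type libraries, a 1.49-fold higher level (log2 0.57, SE 0.11, adjusted p = 0.00129). Its partner Col8a2 was at -0.061 (SE 0.17), and the ratio of Col8a1 to Col8a2 per exonic kilobase was 1.83, 1.42 and 2.14 against 1.24, 1.23 and 0.929. Col7a1 (ENSMUSG00000025650, chromosome 9, 108953586 to 108984875), the anchoring fibril chain of skin and other linings, was at 15.3, 14.1 and 13.7 CPM against 19.7, 30.7 and 24.7 CPM. It was 1.75-fold lower in transgenic libraries (log2 -0.81, SE 0.15, adjusted p = 0.00200), and still lower with library totals alone (-0.41, adjusted p = 0.0263). Col26a1 and Col28a1, with 11 to 47 counts per library, did not pass, and Col10a1, a marker of growth-plate cartilage, had 0 to 5 counts.

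The authors' deposited table lists 6 collagens among its 3614 genes, and the smallest absolute log2 value listed there is 0.585. They are the same 6 that kept their call under library totals. Both results come from the same counts, and these 6 have the largest absolute log2 values among the called collagens. Besides Col9a1, the authors' deposited table gives 1.32 for Col11a2, 1.59 for Col19a1, 0.85 for Col24a1, 0.59 for Col8a1 and -0.80 for Col7a1.

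Genes that act on collagen chains inside the cell were called in both directions. Of 19 tested genes of chain modification and folding, 7 rose and 4 fell (57.9% called, near the 50.7% of all tested genes; median 0.081). With library totals alone 15 rose and 0 fell, where 52.3% of all tested genes rose. P3h4, an endoplasmic reticulum protein needed for lysine hydroxylation of collagen, rose from 6.50, 6.82 and 5.84 CPM to 19.2, 17.1 and 19.2 CPM (1.53, SE 0.09, adjusted p = 3.66e-07). The prolyl 3-hydroxylase gene P3h2, whose product acts on type IV chains, rose by 0.78 (SE 0.09) and the lysyl hydroxylase gene Plod3 by 0.69 (SE 0.08). The prolyl 4-hydroxylase genes P4ha2 (-0.55, SE 0.08) and P4ha1 (-0.29, SE 0.07) fell, although P4ha1 was at 0.11 with library totals alone. Serpinh1, the collagen chaperone HSP47, was at 0.18 (SE 0.09, adjusted p = 0.101).

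Outside the cell, 1 of 12 tested genes of propeptide processing and cross-linking rose and 4 fell (41.7% called, against 50.7% of all tested genes; median -0.27). Under library totals alone 4 rose and 0 fell, against 52.3% and 8.73% of all tested genes. The N-propeptide proteases Adamts14 (-0.60, SE 0.19) and Adamts2 (-0.25, SE 0.09, but 0.14 with library totals alone) and the lysyl oxidase Loxl2 (-0.41, SE 0.13) fell, while Loxl3 rose (0.27, SE 0.10). Lox, the main cross-linking enzyme of fibrils, was at -0.29 (SE 0.16, adjusted p = 0.172), and Bmp1, which removes the C-propeptide, at -0.043 (SE 0.06). Of 9 tested genes of breakdown and its inhibitors, 3 were called (33.3%, against 50.7% of all tested genes). With library totals alone 3 were called higher and 0 lower, where 52.3% of all tested genes rose. With TMM scaling, Timp2 (-0.39, SE 0.09) and Timp3 (-0.49, SE 0.14) fell and Timp1 rose from 0.693, 0.576 and 0.267 CPM to 1.31, 1.10 and 1.58 CPM (1.36, SE 0.34, adjusted p = 0.00599). These encode inhibitors of metalloproteinases. The gelatinase gene Mmp2 (-0.094, SE 0.06) and Mmp14 (-0.20, SE 0.09), a membrane-bound collagenase, did not pass. The collagenase genes Mmp8 and Mmp13 were below the filter and not tested. Mmp8 had 7, 11 and 4 counts against 1, 0 and 2, higher in every transgenic library, and Mmp13 had 0 to 4 counts.

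Of 10 collagen receptors, 1 rose and 2 fell, or 30.0% called against 50.7% of all tested genes. Under library totals alone 4 rose and 0 fell, against 52.3% and 8.73% of all tested genes. The discoidin receptor Ddr1, a kinase that collagen activates, rose (0.53, SE 0.09, adjusted p = 6.34e-04), while its relative Ddr2, a receptor for fibrillar collagen, fell (-0.24, SE 0.09, adjusted p = 0.0495, and 0.16 with library totals alone), as did the integrin Itga1 (-0.40, SE 0.15). The shared integrin chain Itgb1 was at -0.043 (SE 0.06). Of 16 fibril-associated proteoglycans and glycoproteins, asporin, Aspn, fell (-0.45, SE 0.12) and 15 did not pass, with decorin, Dcn, at -0.21 (SE 0.10). That is 6.2% called against 50.7% of all tested genes. Scaled by library totals alone, 4 of the list rose and 0 fell, against 52.3% and 8.73% of all tested genes. Aspn was then at -0.055 (adjusted p = 0.733).

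Most other basement membrane genes fell as well. Of 12, 7 fell and 1 rose (66.7% called, against 50.7% of all tested genes; median -0.25). Under library totals alone 4 rose and 0 fell, against 52.3% and 8.73% of all tested genes. The laminin genes Lamc1 (-0.33, SE 0.07) and Lama4 (-0.36, SE 0.07) and perlecan, Hspg2 (-0.33, SE 0.07), fell, and their values were 0.060, 0.039 and 0.062 with library totals alone. Sparcl1, a matrix glycoprotein related to SPARC, fell by 0.38 (SE 0.06) and was at 0.016 with library totals alone. Agrin, Agrn, which motor nerve and muscle place in the basement membrane, rose (0.27, SE 0.08, adjusted p = 0.0204). Of 15 genes of profibrotic signalling, 10 fell and 1 rose (73.3% called, against 50.7%; median -0.34). Scaled by library totals alone, 4 rose and 1 fell, against 52.3% and 8.73% of all tested genes. The growth factor Pdgfa (-0.90, SE 0.08) and the TGF-beta mediator Smad3 (-0.51, SE 0.07) fell, and Tgfb1 itself was lower (-0.34, SE 0.11) but at 0.058 with library totals alone. Ccn1, a matrix protein that growth factors and stretch induce, rose (0.63, SE 0.10), and Ccn2, a TGF-beta target, was at -0.37 (SE 0.19, adjusted p = 0.152). Of the genes around collagen named here as lower, Pdgfa alone also passed as lower with library totals alone (-0.50, adjusted p = 1.21e-04). The counts ignore strand, and exons of several genes named here overlap those of a gene on the other strand, so their reads cannot be told apart. Pdgfa shares 813 exonic bases with 6330403L08Rik, P3h2 1055 with Gm4524, Timp3 1733 with Syn3, Ccn2 665 with Gm15270, Plod3 529 with Znhit1 and Loxl3 535 with Htra2.

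**Figure D4:**
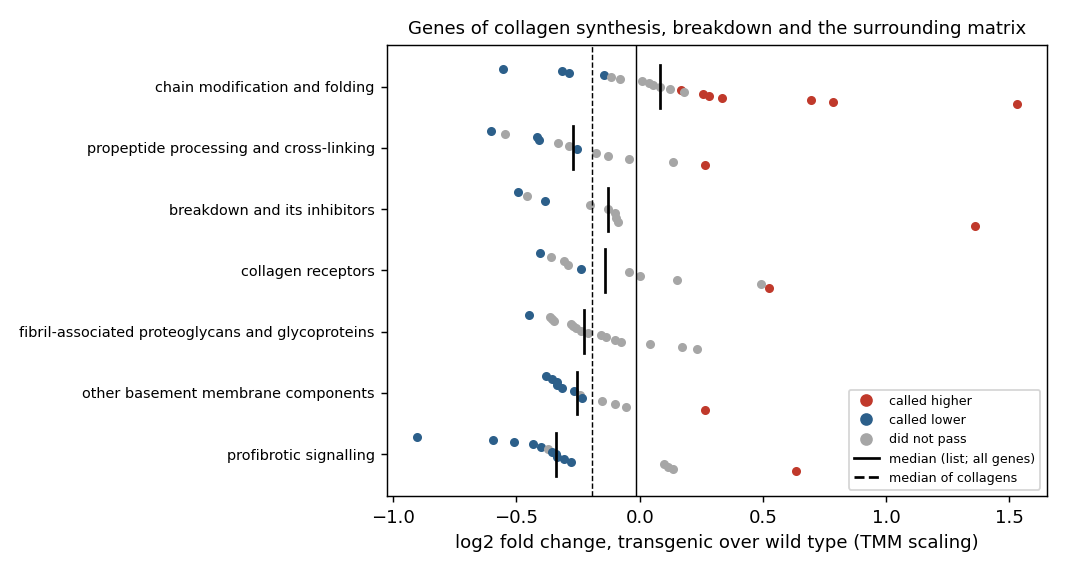
Log2 fold change, transgenic over wild type with TMM scaling, of tested genes in 7 lists around collagen synthesis, breakdown and the matrix. Each point is a gene, coloured by call, short bars mark list medians, and the vertical lines mark the medians of all genes (-0.016) and of the collagens (-0.19). Chain modification and folding has its median above that of all genes at 0.081, and profibrotic signalling the lowest at -0.34.

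Marker genes of the cells that make collagen also differed between libraries. Of 9 tested markers of fibroblasts and fibro-adipogenic progenitors, 3 fell and 0 rose (33.3%, median -0.21), against 25.2% lower among all tested genes. Under library totals alone 0 fell and 2 rose (median 0.18), against 8.73% and 52.3% of all tested genes. The list had a summed level of 1305 to 1532 CPM in transgenic and 1552 to 1803 CPM in wild-type libraries. Most of this sum was Gsn, at 811.6 to 948.2 against 990.8 to 1135 CPM, and the sum without Gsn was not computed. Of the 9 log2 values 7 lay below 0, and Lum (0.23) and Pi16 (0.19) lay above 0 and did not pass. All 9 endothelial and all 9 smooth muscle and pericyte markers fell (medians -0.36 and -0.58), again against 25.2% of all tested genes, with summed levels of 435.5 to 471.7 against 556.1 to 594.7 CPM and 655.7 to 724.6 against 1037 to 1120 CPM. With library totals alone, 0 endothelial markers were called, where 61.0% of all tested genes were. Of the 9 smooth muscle and pericyte markers, 4 were then lower, against 8.73% of all tested genes. The part of these cell types in the small decreases of types I, IV, VI and XV was not tested. Skeletal fibre markers summed to 78070 to 81020 CPM against 147200 to 153800 CPM, the most abundant of the marker lists in every library. Of the 9, 6 fell and 1 rose (77.8% called, against 50.7% of all tested genes). With library totals alone 4 fell and 2 rose, against 8.73% and 52.3% of all tested genes.

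Tendon and nerve markers varied within each genotype. Of 9 tendon and myotendinous junction markers, Chodl rose (0.31, SE 0.11) and 8 did not pass (11.1% called, against 50.7% of all tested genes). Their summed level was 524.3, 444.5 and 259.2 CPM in transgenic and 492.2, 486.5 and 385.3 CPM in wild-type libraries, so transgenic replicate 3 was lowest, as it was for Col12a1 and Col11a1. Fmod, a tendon proteoglycan, was also lowest in transgenic replicate 3, at 117.0 CPM, against 189.9 to 244.6 CPM in wild type. Of 8 Schwann cell and nerve markers 0 passed, against 50.7% of all tested genes. Their summed level was highest in transgenic replicate 1 at 275.5 CPM, against 72.1 and 98.2 CPM in the other transgenic and 108.1 to 222.5 CPM in the wild-type libraries. Adipocyte markers summed to 139.1 to 180.5 CPM in transgenic and 175.0 to 326.9 CPM in wild-type libraries. Plin4 made up most of each sum, at 130.6 to 156.7 against 153.8 to 172.0 CPM. Adipoq, Plin1, Cidec, Lep, Cfd and Retn were each highest in wild-type replicate 1, where Adipoq was at 23.2 CPM, against 1.80 to 7.33 CPM in all other libraries. Macrophage markers summed to 91.9 to 103.2 CPM in transgenic and 64.4 to 103.2 CPM in wild-type libraries. Of 8 macrophage markers, 2 rose and 0 fell under either scaling, and the other 6 did not pass. The 25% that rose is near the 25.5% of all tested genes with TMM scaling. It is below the 52.3% with library totals alone. Cd68, a lysosomal protein, was at 4.31, 5.93 and 5.87 CPM against 2.30, 1.58 and 2.32 CPM (1.40, SE 0.19, adjusted p = 1.27e-04). Lgals3, a galectin, was at 4.73, 5.53 and 9.75 CPM against 2.21, 1.70 and 1.65 CPM (1.86, SE 0.30, adjusted p = 0.00106). Both were higher in every transgenic than in every wild-type library, and their part in the collagen values was not tested. Without transgenic replicate 2, 6 collagens were called lower in place of 11, and without wild-type replicate 1, 7, while 4 were called higher in every such fit.

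**Figure D5:**
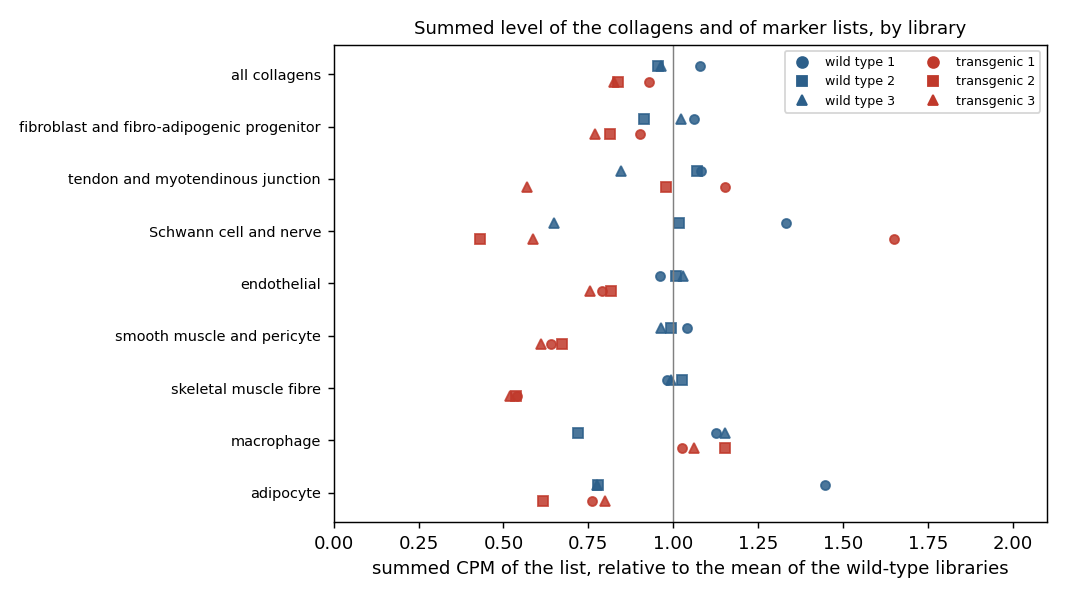
Summed CPM, after TMM scaling, of all collagens and of 8 marker lists in each library, relative to the mean of the wild-type libraries. Points are libraries, with shape giving the replicate and colour the genotype. Collagens, fibroblast, endothelial, smooth muscle and skeletal fibre lists lie lower in every transgenic than in every wild-type library, while the tendon, nerve, macrophage and adipocyte lists overlap. Gsn makes up most of the fibroblast sum.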

How the data were processed

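Per the labels' protocols, Trizol RNA of frozen gastrocnemius went into Illumina libraries. The submitters' processing notes name STAR 2.5.0a, the build GRCm38.p6, featureCounts 2.0.0 and, with no version, DESeq2 as the authors' tools. Per the file headers, counting ignored strand and a fragment over several genes counted for each, so overlapping exons share counts. The deposited table holds raw counts. The authors' deposited table of log2 fold changes with their p-values lists genes past a p and fold limit.

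Columns were assigned to samples by name, and symbols, positions and exonic lengths came from GENCODE M21 (GRCm38). Genes passing filterByExpr were scaled with TMM factors and tested in edgeR 4.0.16 (R 4.3.3, quasi-likelihood F test, robust, genotype as the sole term) over all genes. SE is the absolute log2 fold change over the square root of F. The biological coefficient of variation was 10.7%. The fit was also run on simulated counts in which few genes changed, in either direction. That run does not test the choice of scaling. No libraries of a genotype were duplicates: chi-square over degrees of freedom was 9.92 to 24.0 between them. The alternatives used DESeq2 1.42.0, limma 3.58.1, other scalings and filters, a block on replicate number and leaving out each library. Any collagen could be named, and from each partner or marker list the called members with the 5 smallest p-values, plus genes that define a list. Members, lists and tests were chosen with earlier results of these data known.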

Additional observations from a re-analysis of the deposited data

How the results depend on the processing

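Under upper-quartile factors, DESeq2 size factors, the DESeq2 test, limma-voom, no robust estimation and both other filters, 4 collagens were called higher and 9 to 11 lower. Among these settings, upper-quartile factors and the stricter filter ended the calls of Col1a2 and Col6a2, and limma-voom, no robust estimation and no filter that of Col6a2. The replicate block kept all 15 calls, 4 higher and 11 lower, and called 4165 genes higher and 4166 lower. The shared replicate numbers pair nothing known: deviations of same-numbered libraries correlated at 0.101, -0.0884 and -0.21. With each library left out in turn, 6 to 11 collagens were called lower and 4 higher in each fit (6 lower when transgenic replicate 2 was left out and 7 for wild-type replicate 1).

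Library totals alone gave 15 collagens higher and 2 lower and 8676 genes higher and 1448 lower. This setting moves all genes by about the same amount, by its construction. The sign turned above 0 for Col1a2 (0.11), Col2a1 (0.070), Col3a1 (0.36), Col5a1 (0.31), Col5a2 (0.24), Col5a3 (0.25), Col11a1 (0.37), Col4a1 (0.12), Col4a2 (0.13), Col4a3 (0.20), Col4a4 (0.062), Col4a5 (0.25), Col15a1 (0.095), Col12a1 (0.17), Col22a1 (0.34), Col13a1 (0.13), Col17a1 (0.069), Col6a1 (0.16), Col6a2 (0.20), Col6a3 (0.33) and Col8a2 (0.34). It also turned for P4ha1 (0.11), Adamts2 (0.14), Lox (0.11), Bmp1 (0.35), Timp2 (0.0088), Mmp2 (0.30), Mmp14 (0.19), Ddr2 (0.16), Itgb1 (0.35), Dcn (0.18), Fmod (0.16), Sparcl1 (0.016), Lamc1 (0.060), Lama4 (0.039), Hspg2 (0.062), Tgfb1 (0.058) and Ccn2 (0.021). With no filter the log2 fold change of Col11a1 was 0.00974 and the log2 fold change of Col3a1 was 0.00155. With a library left out, these genes that had not passed changed sign: Col3a1 (-0.13 to 0.057), Col11a1 (-0.22 to 0.31), Col12a1 (-0.37 to 0.0096), Col22a1 (-0.079 to 0.0019), Col8a2 (-0.15 to 0.12), Fmod (-0.47 to 0.027) and Itgb1 (-0.064 to 0.0076). So did Col16a1 (-0.064 to 0.26), Col27a1 (-0.17 to 0.23) and Col4a6 (-0.25 to 0.48). The cause was not tested. Genes under about 50 counts per library, among them Col4a6, Col17a1, Col26a1 and Col28a1, have SE of 0.31 to 0.46, and at this depth a log2 value of -0.55 (Col26a1) did not pass.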
